A study of Mus musculus with 6 samples.

Results

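The 7 genes described here carry the MHC class II pathway of antigen presentation: the invariant chain gene Cd74, the chain genes H2-Aa, H2-Ab1 and H2-Eb1, the peptide editor genes H2-DMa and H2-DMb1, and the regulator gene Ciita. They were taken by symbol, and all 7 were found among the 24346 symbols of the expression table. RNA came from kidneys of C57BL/6 mice, with 3 libraries from the surgery that the labels call IVCC and 3 from Sham surgery. The study is about congestion of the kidney, and setting IVCC beside Sham asks which transcripts differ between the operated and the control kidneys. The labels do not spell out IVCC, give no time after surgery, age or sex, and do not say that replicates came from separate animals, so p-values measure only the spread between these libraries.

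MHC class II molecules display peptides from endocytosed proteins to CD4 T cells. An alpha and a beta chain pair in the endoplasmic reticulum around the invariant chain, which blocks the groove and guides the complex to endosomes. There proteases cut the invariant chain down to a fragment that the DM heterodimer exchanges for antigenic peptide. Ciita encodes the coactivator that switches on the chain, invariant chain and DM genes, and interferon gamma induces it. Dendritic cells, macrophages and B cells carry class II constitutively, and in the kidney resident mononuclear phagocytes are its main known carriers.

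On the GRCm38 assembly, 5 of the 7 members lie within 197.1 kb of chromosome 17 (34119541 to 34316674). H2-DMa (34119541 to 34139101), H2-DMb1 (34153072 to 34160230), H2-Ab1 (34257689 to 34269419) and H2-Eb1 (34305867 to 34316674) are on the plus strand, and H2-Aa (34282744 to 34287823) is on the minus strand. Ciita is on chromosome 16 (10480059 to 10528418, plus strand) and Cd74 lies on another chromosome.

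Class II promoters are known for an X box and a Y box that bind the RFX, CREB and NF-Y factors on which the Ciita coactivator docks. The upstream sequences of 3 members and of the DM beta paralog gene H2-DMb2 are shown because the members carry matches to both kinds of element and the paralog, beside H2-DMb1, to the Y box. Each is the 150 bases before the RefSeq gene start (build GRCm38.p6), 5′ to 3′ on the gene's strand, with capitals marking matches to the Y box core TGATTGG, the X1 core AGNAACTGATG (N where H2-Eb1 and H2-DMb1 differ) or the X2 palindrome TGACGTCA.
H2-Aa (chr17:34287824-34287973, minus strand): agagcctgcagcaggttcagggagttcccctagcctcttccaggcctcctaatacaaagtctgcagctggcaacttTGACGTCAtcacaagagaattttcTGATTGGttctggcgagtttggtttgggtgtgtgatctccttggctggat
H2-Eb1 (chr17:34305717-34305866, plus strand): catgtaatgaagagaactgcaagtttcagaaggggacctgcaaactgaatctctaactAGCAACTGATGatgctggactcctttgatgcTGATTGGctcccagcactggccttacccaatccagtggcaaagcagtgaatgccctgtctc
H2-DMb1 (chr17:34153041-34153190, plus strand): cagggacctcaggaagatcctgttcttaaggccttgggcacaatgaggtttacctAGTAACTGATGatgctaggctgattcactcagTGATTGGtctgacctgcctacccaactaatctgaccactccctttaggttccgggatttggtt
H2-DMb2 (chr17:34145099-34145248, plus strand): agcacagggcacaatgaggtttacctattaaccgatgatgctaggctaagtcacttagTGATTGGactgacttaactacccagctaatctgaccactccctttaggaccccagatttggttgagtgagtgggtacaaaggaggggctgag

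The Y box core began 50 bases upstream of the RefSeq start in H2-Aa, 61 in H2-Eb1, 63 in H2-DMb1 and 92 in H2-DMb2. The coordinates given above begin H2-DMb1 earlier, at 34153072, so its marked letters lie inside that span. The span of H2-DMb2 from the same source, 34143307 to 34151555, holds its whole printed stretch. A RefSeq window of 300 bases (250 before and 50 after the start) was searched for 8 class II genes, Cd74 not among them. Of these 8, 7 held the Y box core, as did 7.82% of all 32851 windows, counting both strands. The X1 core preceded the Y box by 20 bases in H2-Eb1 and by 21 in H2-DMb1, and 0.158% of all windows held it; its letters come from these 2 genes, and H2-Eb2 was the other class II gene to hold it. H2-Aa held instead the X2 palindrome, 16 bases before its Y box, and 1.79% of windows held that one. An X element (X1 or X2) together with a Y box stood in 0.174% of windows, and none of the 3 motifs was found in the windows of H2-DMa. A match is a description of letters, and the X motif letters were chosen after these promoters had been read.

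The members kept 1 order of abundance in all 6 libraries, from Cd74 through H2-Aa, H2-Ab1, H2-Eb1, H2-DMb1 and H2-DMa to Ciita. Levels are FPKM, or fragments mapped per kilobase of a transcript relative to all fragments mapped in the library, a unit per length that allows genes to be compared. Within each group the values of neighbours in this order did not overlap for any of the 6 neighbouring pairs. Cd74 averaged 159 FPKM over the 6 libraries, above 96.8% of all symbols, whereas H2-DMa averaged 5.45 FPKM and Ciita 0.516 FPKM. The transcript of the regulator thus stood at 0.162% to 0.582% of the Cd74 level in the same library.

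In IVCC kidneys Cd74 and the 3 class II chain genes averaged 34.1% to 37.0% more FPKM than in Sham, and each IVCC value lay above each Sham value for these 4 genes. The DM chain genes differed less, by 12.6% for H2-DMa and 17.3% for H2-DMb1, with overlap between the groups. Ciita averaged 2.26-fold more in IVCC, at levels below 1 FPKM on average, and 1 IVCC library carried most of that difference. None of these differences passed the test over all genes: limma gave an adjusted p of 0.924 for each of the 6 members tested. In RNA of whole kidney, a different number of cells of a type and a different amount of RNA per cell cannot be told apart.

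Cd74, the chaperone of the nascent dimer, stood at 149.8, 206 and 194 FPKM after IVCC and at 128, 135 and 142 FPKM after Sham. The groups did not overlap, but the lowest IVCC value was only 5.85% above the highest Sham value. The means were 183 ± 29.6 and 135 ± 6.78 FPKM (SD, n = 3 each), a log2 fold change of 0.43 on the log2(FPKM + 1) scale with a 95% interval of 0.08 to 0.78 before adjustment over genes.

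H2-Aa, the alpha chain of the I-A molecule, stood at 104, 145 and 117 FPKM after IVCC and at 94.3, 78.9 and 99.5 FPKM after Sham. Its lowest IVCC value was 4.30% above the highest Sham value, and its log2 fold change was 0.41 (0.04 to 0.79). H2-Ab1, its beta chain partner, stood at 75.1, 99.8 and 89.1 FPKM after IVCC and at 63.9, 70.04 and 58.7 FPKM after Sham. This gap, at 7.17%, was the widest of the 4 genes, and the log2 fold change was 0.44 (0.12 to 0.77).

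H2-Eb1, the beta chain of the I-E molecule, stood at 55.1, 72.4 and 64.6 FPKM after IVCC and at 41.4, 45.3 and 53.5 FPKM after Sham. The groups were separated by 2.98%, with a log2 fold change of 0.44 (0.10 to 0.79). C57BL/6 mice are known to lack a working I-E alpha gene, so the H2-Eb1 product has no regular partner in this strain. The table listed that alpha gene, as the pseudogene H2-Ea-ps, at 0 in all 6 libraries. An antisense gene of the annotation, Gm20513, overlaps H2-Eb1; the kit marks strand, but whether the counting used it is not given in the sources used here.

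**Figure D1:**
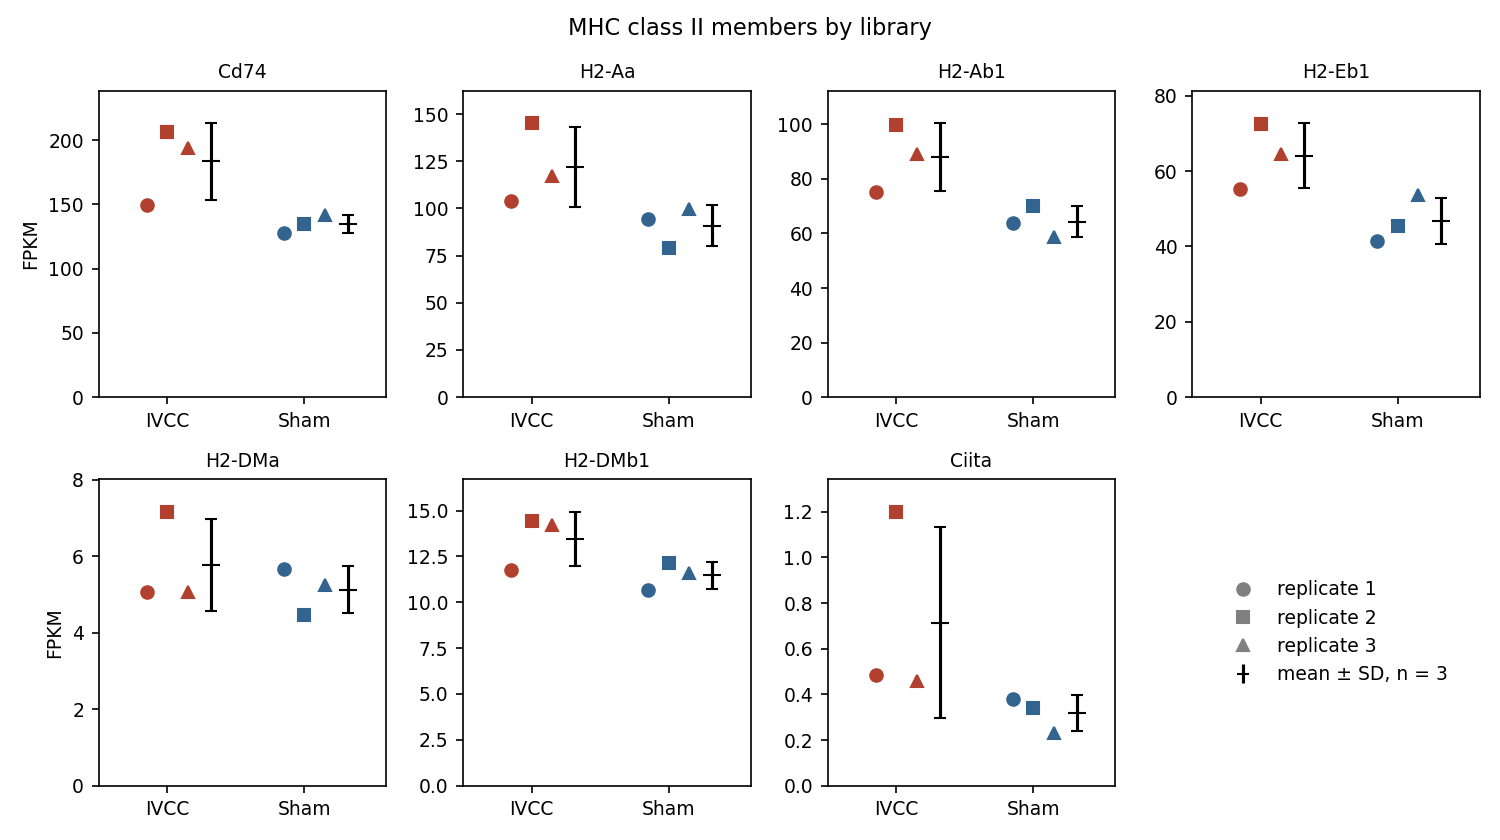
FPKM of the 7 members in each library (marker shape gives the replicate number), with the mean and SD of 3 libraries per group as bars; each vertical axis starts at 0. IVCC values lie above all Sham values for Cd74, H2-Aa, H2-Ab1, H2-Eb1 and Ciita, and overlap them for H2-DMa and H2-DMb1; IVCC replicate 2 is the highest library in all 7 panels.

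H2-DMa, the alpha chain of the DM peptide editor, stood at 5.07, 7.16 and 5.08 FPKM after IVCC and at 5.67, 4.46 and 5.25 FPKM after Sham. Only IVCC replicate 2 lay above the Sham range, and the log2 fold change was 0.13 (-0.23 to 0.50). H2-DMb1, the DM beta chain, stood at 11.8, 14.4 and 14.2 FPKM after IVCC and at 10.7, 12.2 and 11.6 FPKM after Sham. IVCC replicates 2 and 3 lay above all Sham values and IVCC replicate 1 within them, for a log2 fold change of 0.21 (-0.07 to 0.49). H2-DMb1 shares 15.8% of its 75-base windows exactly with H2-DMb2, so its level is uncertain to the extent that reads were split between the pair. H2-DMa overlaps by position the gene Brd2, on the other strand, and 3 other annotated genes. Its level is uncertain to the extent that their reads were counted with it.

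Ciita stood at 0.486, 1.20 and 0.459 FPKM after IVCC and at 0.380, 0.342 and 0.229 FPKM after Sham. The groups did not overlap, and IVCC replicate 2 was far above the other 5 libraries. The means were 0.715 ± 0.420 and 0.317 ± 0.0785 FPKM (SD, n = 3 each), and without IVCC replicate 2 the IVCC mean was 49.1% above Sham. Ciita fell below the minimum mean of 1 FPKM for the test over all genes. An exact two-sided permutation test on its mean gave p = 0.1, the smallest value that 3 against 3 libraries allow. Groups of this size without overlap always give that value, so it adds nothing to their separation. Ciita also overlaps the gene Dexi on the other strand, which was present at 8.63 to 14.9 FPKM.

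Among the 6 members tested, all 6 had a positive log2 fold change, where 48.4% of the 12090 genes tested did. The median was 0.42, against -0.01 over all genes tested. For 4 of the 6 the IVCC values lay above all Sham values, as for 4.09% of tested genes, and the same 4 had an unadjusted limma p under 0.05 in that direction, as for 1.7% of tested genes. After adjustment limma called 0 members at 0.05, and 0% of all genes in either direction, of which 431 (3.56%) had an unadjusted p under 0.05. These counts describe genes that are transcribed under 1 regulator and were chosen with earlier results known, and they are not 6 separate observations. Leaving out IVCC replicate 2 left 4 members without overlap (against 5.98% of genes), and the median was 0.31. In that fit 0 members had an unadjusted limma p under 0.05, against 216 of 12034 genes in either direction. Without another library the members under 0.05 numbered 4 (IVCC replicate 1 or Sham replicate 3), 3 (Sham replicate 2), 2 (IVCC replicate 3) and 1 (Sham replicate 1). All genes under 0.05 then numbered 214, 364, 565, 1039 and 369, in the same order.

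The libraries differed within groups as well as between them. All 7 members were highest in IVCC replicate 2, and none was lowest in an IVCC library. Averaged over the 6 tested members, the log2 deviation from each gene's own mean was -0.03, 0.37 and 0.18 in IVCC replicates 1 to 3 and -0.20, -0.20 and -0.12 in the Sham replicates. IVCC replicate 1 thus lay between the Sham libraries and the other 2 IVCC libraries. H2-DMa differed most from the common pattern of the others, by a root mean square of 0.18 on the log2 scale over the 6 libraries, and Cd74 least, by 0.08.

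**Figure D2:**
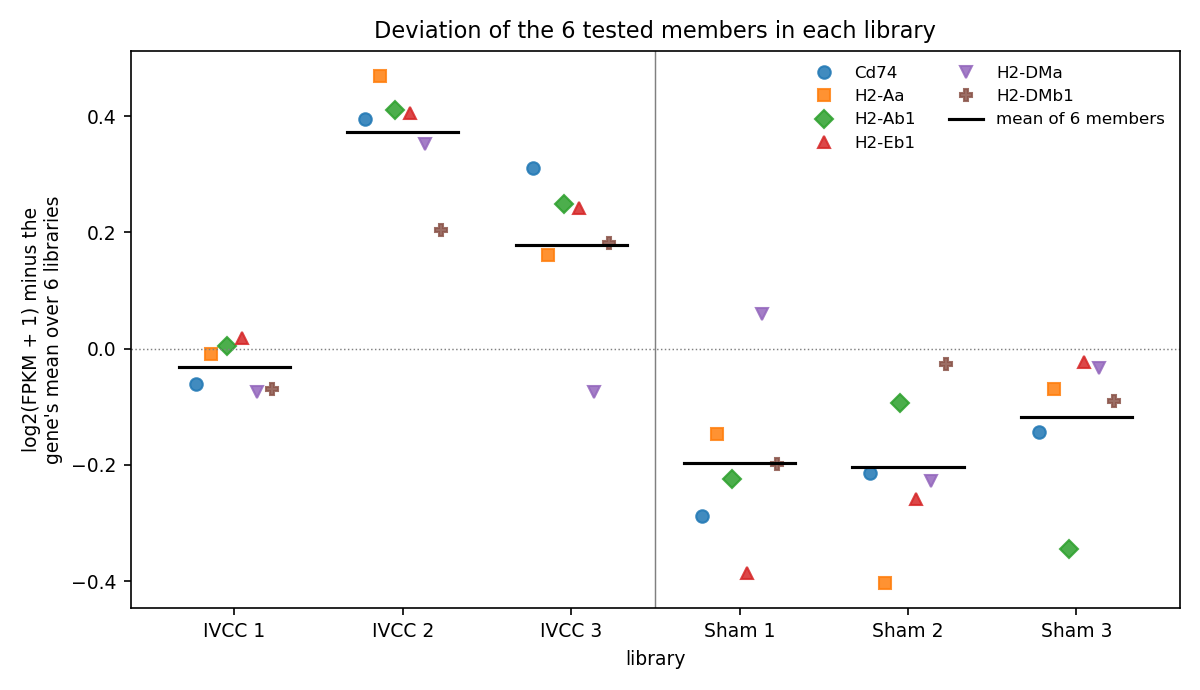
Log2(FPKM + 1) of each tested member minus that gene's mean over the 6 libraries, by library (horizontal axis), with the mean of the 6 members as a black line. The lines for IVCC replicates 2 and 3 lie at 0.37 and 0.18, that for IVCC replicate 1 at -0.03 and those for Sham at -0.20, -0.20 and -0.12.

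The proportions between the pathway's parts were compared within each library, as a description with no test. Cd74 stood at 0.669 ± 0.0422 of the summed H2-Aa, H2-Ab1 and H2-Eb1 FPKM after IVCC and at 0.668 ± 0.0264 in Sham (SD, n = 3 each). The H2-Ab1 to H2-Aa ratio was 0.724 ± 0.0367 and 0.718 ± 0.153, with Sham spanning 0.590 to 0.888. H2-DMb1 stood at 2.38 ± 0.393 times the H2-DMa level in IVCC and at 2.27 ± 0.424 in Sham. In these 3 ratios the groups overlapped. H2-DMa amounted to 4.89%, 4.94% and 4.34% of H2-Aa in IVCC and to 6.01%, 5.66% and 5.28% in Sham, without overlap.

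**Figure D3:**
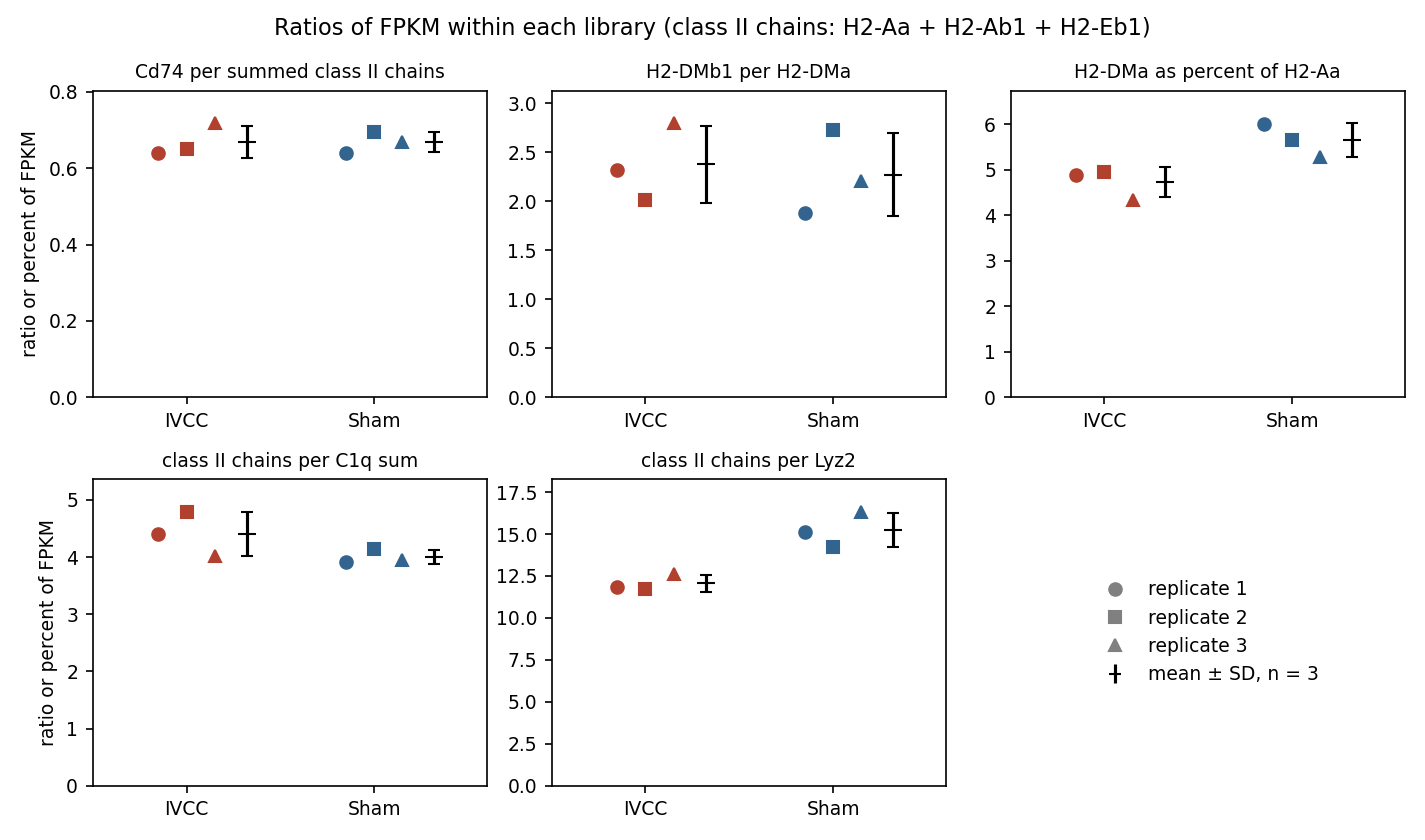
Ratios of FPKM within each library (H2-DMa in percent of H2-Aa), by group and replicate, with mean and SD of 3 libraries; each vertical axis starts at 0. Cd74 per chain sum sits near 0.67 in both groups, while H2-DMa per H2-Aa and the chain sum per Lyz2 are lower in all IVCC libraries than in all Sham libraries.

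The remaining class II chain genes were scarce, and none of the 5 found in the table reached the filter. H2-Oa, the alpha chain of the DO molecule that restrains DM, stood at 1.004, 0.833 and 0.773 FPKM after IVCC and at 0.169, 0.655 and 0.578 FPKM after Sham, without overlap. H2-Ob, the DO beta chain, overlapped, at 0.484 ± 0.156 and 0.473 ± 0.249 FPKM (SD, n = 3 each). H2-DMb2 was highest in replicate 2 of both groups, at 1.82 FPKM after IVCC and 1.67 FPKM after Sham, and at 0.749 FPKM or less in the other 4 libraries. H2-Eb2 was listed at 0.038 and 0.074 FPKM after IVCC replicates 1 and 2 and at 0 in the other 4 libraries.

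The genes of the promoter-bound factors, 10 of 10 tested, were 7 higher (48.4% of all tested genes) and 3 lower in fitted value. Their median log2 fold change was 0.11, with overlap between the groups for each of them. Rfx5, a subunit of the X box complex, averaged 4.06 ± 0.587 FPKM after IVCC and 3.24 ± 1.05 FPKM after Sham (SD, n = 3 each). The NF-Y subunit genes went both ways: Nfyb averaged 8.09 ± 1.09 and 6.64 ± 0.986 FPKM, and Nfyc 47.7 ± 7.87 and 52.0 ± 8.28 FPKM. No member of this list had an unadjusted limma p under 0.05 (3.56% of all tested genes).

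Upstream of Ciita, the interferon gamma axis had 8 of 10 tested members higher (48.4% of all tested genes) and 2 lower, with a median log2 fold change of 0.23. For 2 of the 10 the IVCC values lay above all Sham values (4.09% of all). Irf1, a transcription factor that binds the interferon-responsive Ciita promoter, stood at 11.5, 13.3 and 9.08 FPKM after IVCC and at 8.23, 8.78 and 5.79 FPKM after Sham, without overlap. The list had 2 members higher at an unadjusted limma p under 0.05 (1.7% of all tested genes), Cxcl9 and Irf1, and 0 with an adjusted p under 0.05 (smallest adjusted p = 0.905, limma).

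Ifng, the gene of the inducing cytokine, was listed at 0.117 FPKM after IVCC replicate 2 and at 0 in the other 5 libraries. A value this low rests on very few reads. The same library held the highest value of all 7 members and of Irf1, but also of Ptprc, Lyz2 and Mpeg1. Other leukocyte and phagocyte genes peaked elsewhere, such as Cd52 and Cd68 in IVCC replicate 1. C1qb and C1qc were highest in IVCC replicate 3 and Csf1r in Sham replicate 2. Socs1, a feedback inhibitor of the same receptor, stood at 1.07, 1.62 and 0.857 FPKM after IVCC and at 0.421, 0.272 and 0.320 FPKM after Sham, without overlap and under the filter. The part of interferon signalling in the class II values was not tested.

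Genes of endosomal antigen processing, 12 of 12 tested, had a median log2 fold change of 0.04, with 8 higher (48.4% of all tested genes) and 4 lower. Ctss, the protease that trims the invariant chain in antigen-presenting cells, alone had an unadjusted limma p under 0.05 (3.56% of all tested genes). Ctss stood at 15.5, 23.7 and 13.2 FPKM after IVCC and at 13.8, 11.03 and 10.4 FPKM after Sham, with overlap. Ctsl, which takes that role in thymic epithelium and is abundant in tubules, averaged 413 ± 6.92 and 399.7 ± 26.6 FPKM (SD, n = 3 each). March1, a ubiquitin ligase that removes class II from the surface, averaged 1.30 ± 0.212 and 1.44 ± 0.226 FPKM, and its groups overlapped.

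Genes of the same chromosomal region that do not encode class II chains spread over log2 fold changes of -0.02 to 0.50, with a median of 0.22. Of 7 tested, 6 had a positive value (48.4% of all tested genes) and for 1 the IVCC values lay above all Sham values (4.09% of all). The immunoproteasome subunit gene Psmb9, which lies between H2-DMb1 and H2-Ob, averaged 8.74 ± 1.29 FPKM after IVCC and 6.66 ± 1.25 FPKM after Sham (SD, n = 3 each). Tap1, a peptide transporter subunit of the class I pathway, had the highest log2 fold change of the 7, at 0.50, with 4.86 ± 0.918 and 3.25 ± 1.29 FPKM and overlap. Brd2, the neighbour that overlaps H2-DMa, averaged 38.7 ± 4.98 and 39.4 ± 5.41 FPKM.

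Among costimulatory and inhibitory ligand genes, which antigen-presenting cells show beside class II, 2 of 6 passed the filter, and both had all IVCC values above Sham (4.09% of all tested genes). Icosl, the ICOS ligand, stood at 2.66, 3.03 and 2.77 FPKM after IVCC and at 1.84, 1.84 and 1.79 FPKM after Sham. Cd274, which encodes PD-L1, averaged 1.56 ± 0.157 and 1.002 ± 0.221 FPKM (SD, n = 3 each). Cd86 averaged 0.793 ± 0.0918 and 0.636 ± 0.243 FPKM and overlapped. Cd80 was listed at 0.081, 0.156 and 0.145 FPKM after IVCC and at 0 in all 3 Sham libraries, whose estimated depth was lower.

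Markers of the cells that carry class II differed unequally between the groups. Macrophage markers had 9 of 10 tested members higher in fitted value (48.4% of all tested genes) and 1 lower, with a median log2 fold change of 0.35, and 4 had all IVCC values above Sham (4.09% of all). The summed level of all 14 was 103.02 to 127 FPKM after IVCC and 91.8 to 95.4 FPKM after Sham, and none was at 0 in all libraries. Lyz2, the myeloid lysozyme, and Mpeg1, a phagocyte pore protein, had log2 fold changes of 0.72 and 0.65, while Csf1r, the receptor for the macrophage growth factor, went the other way at -0.37. Csf1r stood at 10.6, 11.2 and 14.1 FPKM after IVCC and at 13.6, 17.4 and 16.3 FPKM after Sham.

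Set against these markers, the summed chain genes gave 4.40, 4.79 and 4.02 FPKM per FPKM of the 3 C1q genes in IVCC and 3.92, 4.15 and 3.95 in Sham, with overlap. Per FPKM of Lyz2 they gave 11.9, 11.7 and 12.6 in IVCC and 15.1, 14.3 and 16.3 in Sham, without overlap. Per FPKM of Csf1r the order was the opposite, at 22.2, 28.2 and 19.2 in IVCC and 14.7, 11.2 and 13.03 in Sham, without overlap, and per FPKM of Ptprc the groups overlapped, at 124 ± 33.1 and 129 ± 36.7 (SD, n = 3 each). The ratio of chain to macrophage transcripts thus depended on the marker used. The part of macrophage number in the class II values was not tested.

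Dendritic cell markers gave 4 tested genes with log2 fold changes of -0.10 to -0.01, a median of -0.04, and 8 genes below the filter that went both ways. The summed level of the 12 was 74.7 to 78.7 FPKM after IVCC and 72.2 to 90.7 FPKM after Sham. Most of that sum is Cd24a, which tubules also express, and without it the other 11 summed to 7.86 to 9.58 and 8.12 to 8.98 FPKM. Zbtb46, a transcription factor of conventional dendritic cells, averaged 0.992 ± 0.243 and 1.03 ± 0.1004 FPKM (SD, n = 3 each), and Flt3, Xcr1, Ccr7 and Siglech averaged under 0.3 FPKM in both groups. Itgax, the CD11c integrin, averaged 1.03 ± 0.192 and 0.811 ± 0.130 FPKM and Clec10a, a lectin, 0.882 ± 0.459 and 0.531 ± 0.334 FPKM, both with overlap. Irf4 averaged 0.200 ± 0.130 and 0.0880 ± 0.0233 FPKM, without overlap.

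B cell markers were near the floor of the table, with 0 of 8 reaching the filter and sums of 1.90 to 2.03 FPKM after IVCC and 1.73 to 2.45 FPKM after Sham. Pax5 was listed at 0 in 4 libraries and Ms4a1 at 0 in 2 Sham libraries. T cell markers, which mark the cells that read class II, summed to 5.13 to 5.37 FPKM after IVCC and 3.60 to 5.09 FPKM after Sham over 7 genes. Cd4, the coreceptor for class II, averaged 0.199 ± 0.0392 and 0.116 ± 0.0723 FPKM (SD, n = 3 each), with overlap. The pan-leukocyte gene Ptprc was highest in IVCC replicate 2, at 3.55 FPKM, and at 1.24 to 1.88 FPKM in the other 5 libraries. Of the 4 leukocyte genes 3 were higher (48.4% of all tested genes) and 1 lower. Their sum was 39.8 to 43.2 FPKM after IVCC and 31.3 to 33.5 FPKM after Sham. Cd52 stood at 30.7, 23.7 and 26.4 FPKM after IVCC and at 18.7, 19.1 and 20.3 FPKM after Sham. Coro1a, the lower gene, averaged 6.09 ± 0.598 and 6.40 ± 0.720 FPKM, with overlap.

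Endothelial cells can carry class II when activated, and all 8 endothelial markers tested had a positive log2 fold change (48.4% of all tested genes), with a median of 0.24, and 3 had all IVCC values above Sham (4.09% of all). Their sum was 160 to 175 FPKM after IVCC and 139 to 155 FPKM after Sham. Pecam1, a junction protein of endothelium, averaged 15.6 ± 0.287 and 11.8 ± 0.993 FPKM (SD, n = 3 each). Kidney epithelial markers were all present, with Slc34a1 of the proximal tubule at 2131 to 2576 FPKM, Umod of the thick ascending limb at 842 to 1702 FPKM and Aqp2 of the collecting duct at 75.6 to 185 FPKM. Of these 9 markers 6 had a higher (48.4% of all tested genes) and 3 a lower fitted value.

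**Figure D4:**
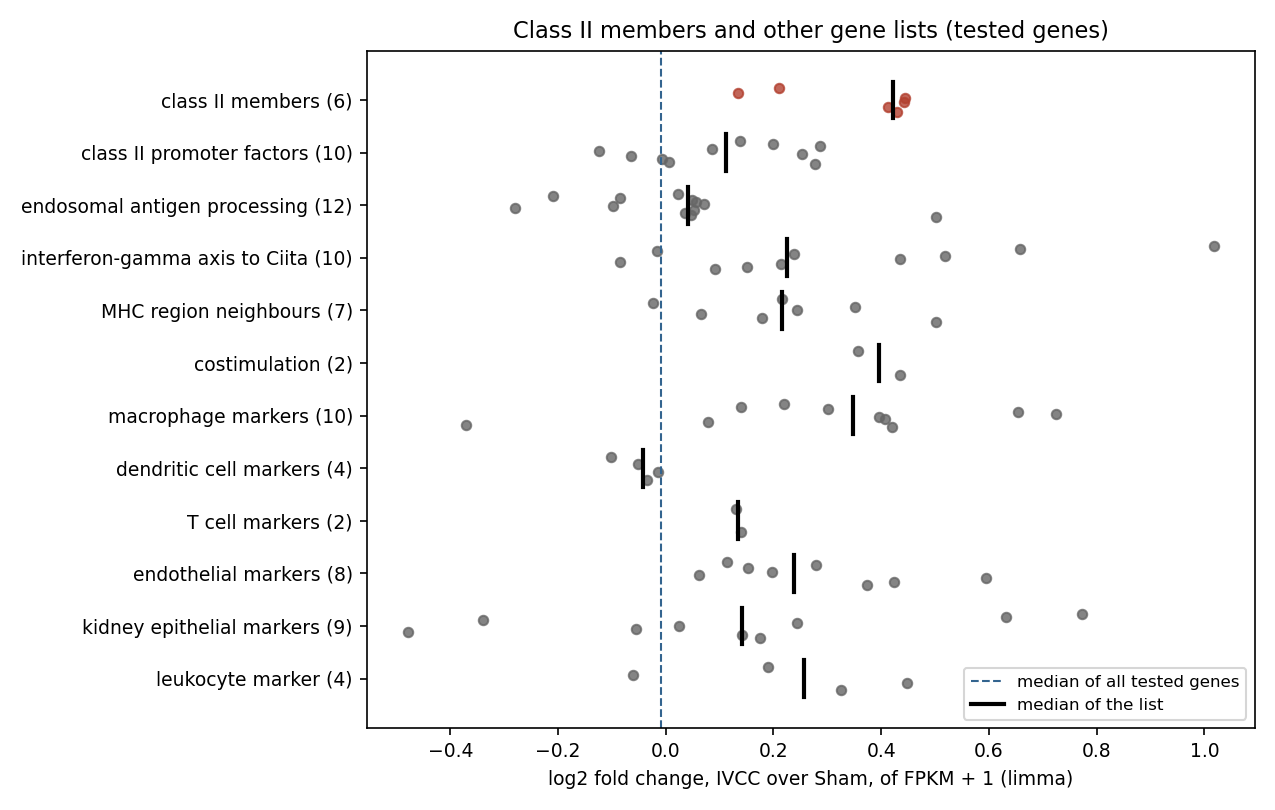
Log2 fold change of IVCC over Sham on the log2(FPKM + 1) scale (horizontal axis, limma) for each tested gene of the class II members and the other lists with tested genes, number tested in brackets; black bars are list medians and the dashed line is the median of all tested genes. The class II members have a median of 0.42, macrophage markers 0.35, promoter factors 0.11 and dendritic cell markers -0.04.

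The libraries as a whole resembled each other, with a Spearman correlation over genes of 0.971 to 0.976 within groups and 0.968 to 0.977 between them. FPKM carry no read totals, but the spacing of the lowest values put nominal depths at 8030000 to 8990000 reads for IVCC libraries and 6040000 to 7230000 for Sham libraries. These are nominal, since 81.2% to 86.3% of the low values came within 0.1 of a whole read. The deposited FPKM summed to 719896 to 1118258 per library, of which the tubular gene Kap took 10.96% to 16.6%, and IVCC replicate 2 had the lowest sum. Rescaling each library to the same sum moved the median log2 fold change of all genes to 0.15 and that of the 6 members to 0.60.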

How the data were processed

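Per the labels' protocols, kidney RNA went into a stranded mRNA kit and was read from 1 end over 75 bases. The values are FPKM as deposited by the authors, 1 column for each of 6 libraries. The submitters' processing notes name Cufflinks 2.2.1, TopHat2 2.0.13, SAMtools 0.1.19, Bowtie2 2.2.3 and the build mm10, with no roles. The annotation, strand setting and scaling were not given in the sources used here. Depth was estimated from the steps between low values, so no count test was run and precision rests on 3 libraries per group.

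Genes averaging 1 FPKM or more (12090) were compared on log2(FPKM + 1), which understates the change of low genes, with limma 3.58.1 in R 4.3.3 (eBayes with trend, two-sided), adjusted by Benjamini-Hochberg over all of them at 0.05. The fit was tested on simulated data, with planted changes larger than those of the tested members. Intervals are for single genes at 95%. The members and lists were chosen with earlier results of these data known. All 7 members are named, with up to 4 genes per list by smallest p and any whose role a sentence needs; further genes of the lists were named after their values were seen. Of the genes this rule takes, some are not reported here. Coordinates are from GENCODE M21 (GRCm38) and promoters from RefSeq. The motif search covered 4 of 7 members and left out Cd74, H2-Ab1 and Ciita. Alternatives were pseudocounts of 0.1 and 5, dropping the filter, raising it to 5 FPKM, 3 scalings, 2 eBayes options, the replicate number as a block, and each library left out. No filter with a pseudocount of 0.1 was added after seeing the data.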

Additional observations from a re-analysis of the deposited data

How the results depend on the processing

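The median log2 fold change of the members stayed between 0.31 and 0.60 over all 17 other settings, and 0 members had an adjusted limma p under 0.05 in any of them. Of single members only H2-DMa turned, with log2 fold changes of -0.0074 (without IVCC replicate 2) to 0.21 (without IVCC replicate 1) as 1 library was left out. Without a filter Ciita had a log2 fold change of 0.36, and 0.87 with a pseudocount of 0.1 as well (adjusted p = 0.916 and 0.910, limma). The count of all genes with an unadjusted p under 0.05, 431, was 780 without a filter, 723 without a filter and with a pseudocount of 0.1, and 282 with a filter at 5 FPKM. It was 214 to 1039 with 1 library left out, lowest without IVCC replicate 1 and highest without IVCC replicate 3. Genes with an adjusted p under 0.05 numbered 0 to 4 in those fits: 2 without IVCC replicate 1, 3 without IVCC replicate 2, 4 without IVCC replicate 3 and 1 without Sham replicate 2. The causes were not tested. With the replicate number as a block, 2388 genes had an unadjusted limma p under 0.05, with 5 of the 6 tested members among them. In that fit 0 genes had an adjusted p under 0.05, and the smallest adjusted p of a member was 0.101. Same-numbered libraries deviated together in 2 of 3 pairs (correlations of -0.11, 0.34 and 0.32). IVCC replicates 2 and 3 correlated best with their own number, and IVCC replicate 1 did not. The labels do not say that the numbers pair libraries, so the block was kept as an alternative.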

Other observations

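Among the tested genes whose deviations over the 6 libraries came closest to the mean of the 6 tested members were Adgrl1, Armcx3, Mxra8 and Card6. They differed from it by a root mean square of 0.07 to 0.08 on the log2 scale, and were picked from 11399 named genes compared over only 6 libraries. None of these is on the lists of antigen-presenting cells. Mxra8, a cell surface protein of stromal cells, stood at 6.40, 8.18 and 6.96 FPKM after IVCC and at 4.62, 5.36 and 5.20 FPKM after Sham, without overlap. Armcx3, a protein of the mitochondrial outer membrane, stood at 4.94, 6.69 and 5.79 FPKM after IVCC and at 4.69, 3.86 and 4.23 FPKM after Sham, also without overlap. Adgrl1 and Card6 overlapped between the groups.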
